A study of Equus caballus with 37 samples.

Results

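CRYGS, SYCE1, ANKZF1 and GTSF1 are 4 genes of the 26991 in a count table of horse blood, and they were chosen by their fall over a racing season. They were selected on the same libraries that are described here, and each was matched by the Ensembl identifier that the study prints for it: ENSECAG00000002645 for CRYGS, ENSECAG00000012421 for SYCE1, ENSECAG00000016473 for ANKZF1 and ENSECAG00000013618 for GTSF1. All 4 passed the filter on low counts in each of the 6 pairs of periods, and all 4 had at least 6 counts in every library.

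Blood of Arabian horses was collected from the jugular vein and sequenced in 37 libraries. The T1 group (n = 12) was sampled in March after the slow canter phase, T2 (n = 11) in May after the intense gallop phase and T3 (n = 8) in October when the races were over; all of these horses were 3 years old and in race training. The T0 group (n = 6) held untrained horses, of which 5 were labelled 2.5 years old and 1 was labelled 3 years old. T0 held 2 mares and 4 stallions, T1 had 5 mares and 7 stallions, T2 had 4 mares and 7 stallions, and T3 had 4 of each sex. Horses in training were sampled more than once, but the labels name no horse, so the libraries were compared as independent samples. The study states that some of the untrained horses did not enter training, so T0 differs from the trained groups at least partly in horses. It also differs in age and, sampled in October, from T1 and T2 in month. Training cannot be told apart from these. In whole blood, fewer cells of a type and less RNA per cell cannot be told apart, and the markers of blood cell types were not analysed here because the symbols and the identifiers of the counts were not paired in the tables used.

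The 4 genes have separate known roles. CRYGS encodes gamma-S crystallin, a structural protein of the eye lens. SYCE1 encodes a central element protein of the synaptonemal complex, which joins homologous chromosomes in meiosis. ANKZF1 encodes an ankyrin repeat and zinc finger protein that acts in ribosome-associated quality control, where it releases unfinished peptide chains from stalled ribosomes. GTSF1, gametocyte specific factor 1, is a partner of PIWI proteins in the silencing of transposons by small RNAs in germ cells. Only ANKZF1 belongs to a process that runs in cells of every tissue, and the other members are best known from the lens or the germ line.

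CRYGS was also measured by real-time PCR in the study. The sequences of its primers are shown because they define the stretch of the transcript that the study chose to follow, and they are written 5′ to 3′ in lower case; no base is marked by a capital. The PCR values were not analysed here.
CRYGS forward: ctgaacaccagcattggatg
CRYGS reverse: catgatggaagggcaatctt

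The library kit does not mark strand, so reads from a stretch that the exons of 2 genes share cannot be told apart by strand. In the RefSeq annotation of the thoroughbred assembly TB-T2T, which is not the EquCab2 assembly behind the counts, CRYGS overlaps 1 gene, TBCCD1. ANKZF1 overlaps 2 genes there, ATG9A and GLB1L. GTSF1 overlaps 1 pseudogene, and SYCE1 overlaps no annotated gene. These overlaps are of whole gene spans, and whether exons are shared was not examined. Any effect on the counts of CRYGS, ANKZF1 and GTSF1 is therefore not known.

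Library totals lay between 3810631 and 14932603 counts. Libraries were scaled with TMM factors, which correct the total for the make-up of the library, and a level is given as CPM, the count of a gene per 1000000 of that scaled total. The factor separated 5 of the 12 libraries of T1 (replicates 1, 2, 3, 4 and 11, at 0.410 to 0.696) from the other 7 (0.922 to 1.14). In T0, T2 and T3 it lay between 0.949 and 1.25. The 5 libraries came from 4 mares and 1 stallion, and the 7 others from 1 mare and 6 stallions. The 10 most abundant genes took 8.97 to 12.1% of the counts in the 5 libraries and 7.66 to 9.15% in the 7, and 11559 to 14108 against 14039 to 15208 genes were detected. In the study's read statistics, matched by the order of the samples, these 5 had lower shares of uniquely mapped reads than the other 7. Replicates 1, 2, 3 and 4 are there the only T1 samples of pool 1, and replicate 11 is in another pool. What sets these 5 libraries apart was not tested. The differences between periods, the sex tests and the likeness of genes are given with and without them.

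CRYGS had between 22 and 202 counts per library. In T0 its level was 7.07, 5.44, 4.26, 3.31, 1.57 and 5.05 CPM in replicates 1 to 6. In T1 it was lowest at 10.3, with a median of 13.2 and a highest value of 40.4 CPM. In T2 the lowest, median and highest values were 2.11, 9.82 and 15.4 CPM, and in T3 they were 2.51, 5.10 and 8.49 CPM. Every library of T1 was thus above every library of T0 and of T3, while T2 spanned values from below the lowest T3 library to above the lowest values of T1. T0 averaged 4.45 ± 1.89 CPM (SD, n = 6), T1 20.3 ± 11.3 (SD, n = 12), T2 8.78 ± 3.83 (SD, n = 11) and T3 5.29 ± 1.96 (SD, n = 8).

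SYCE1 had the fewest counts of the members in a library, with 8 in replicate 2 of T0. Its levels in T0 were 4.04, 0.640, 1.15, 1.41, 1.22 and 2.86 CPM in replicates 1 to 6. T1 ranged from 2.91 to 35.6 CPM with a median of 8.13, T2 from 1.65 to 8.85 with a median of 3.94, and T3 from 1.34 to 6.06 with a median of 1.61. The values of T1 fell into a high set of 5 libraries and a low set of 7 with a wide gap between them, and only the low set overlapped the other periods. T0 averaged 1.89 ± 1.29 CPM (SD, n = 6), T1 15.8 ± 13.5 (SD, n = 12), T2 4.40 ± 2.11 (SD, n = 11) and T3 2.38 ± 1.63 (SD, n = 8). The coefficient of variation of SYCE1 was 68.5% in T0 and 85.1% in T1, and counting error alone would give 19.9% and 12.1%.

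ANKZF1 was counted most deeply, with 567 to 4073 counts per library. In T0 its levels were 144, 118, 92.4, 78.8, 76.5 and 107 CPM in replicates 1 to 6. T1 ranged from 139 to 484 CPM with a median of 268, T2 from 91.3 to 252 with a median of 160, and T3 from 68.0 to 174 with a median of 113. In T1, 11 of 12 libraries exceeded the highest T0 library, and 6 of the 8 T3 libraries lay below the lowest T1 library. T0 averaged 103 ± 25.8 CPM (SD, n = 6), T1 305 ± 125 (SD, n = 12), T2 170 ± 54.8 (SD, n = 11) and T3 119 ± 35.5 (SD, n = 8).

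GTSF1 varied least between periods. Its levels in T0 were 8.55, 15.4, 14.2, 9.65, 14.3 and 10.7 CPM in replicates 1 to 6. T1 ranged from 9.73 to 28.4 CPM with a median of 16.8, T2 from 8.77 to 23.3 with a median of 12.6, and T3 from 5.85 to 17.2 with a median of 9.44. Libraries of all 4 periods overlapped, and 3 of 8 T3 libraries lay below the lowest T0 library. T0 averaged 12.1 ± 2.87 CPM (SD, n = 6), T1 17.7 ± 5.46 (SD, n = 12), T2 13.7 ± 4.68 (SD, n = 11) and T3 9.89 ± 3.36 (SD, n = 8).

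**Figure D1:**
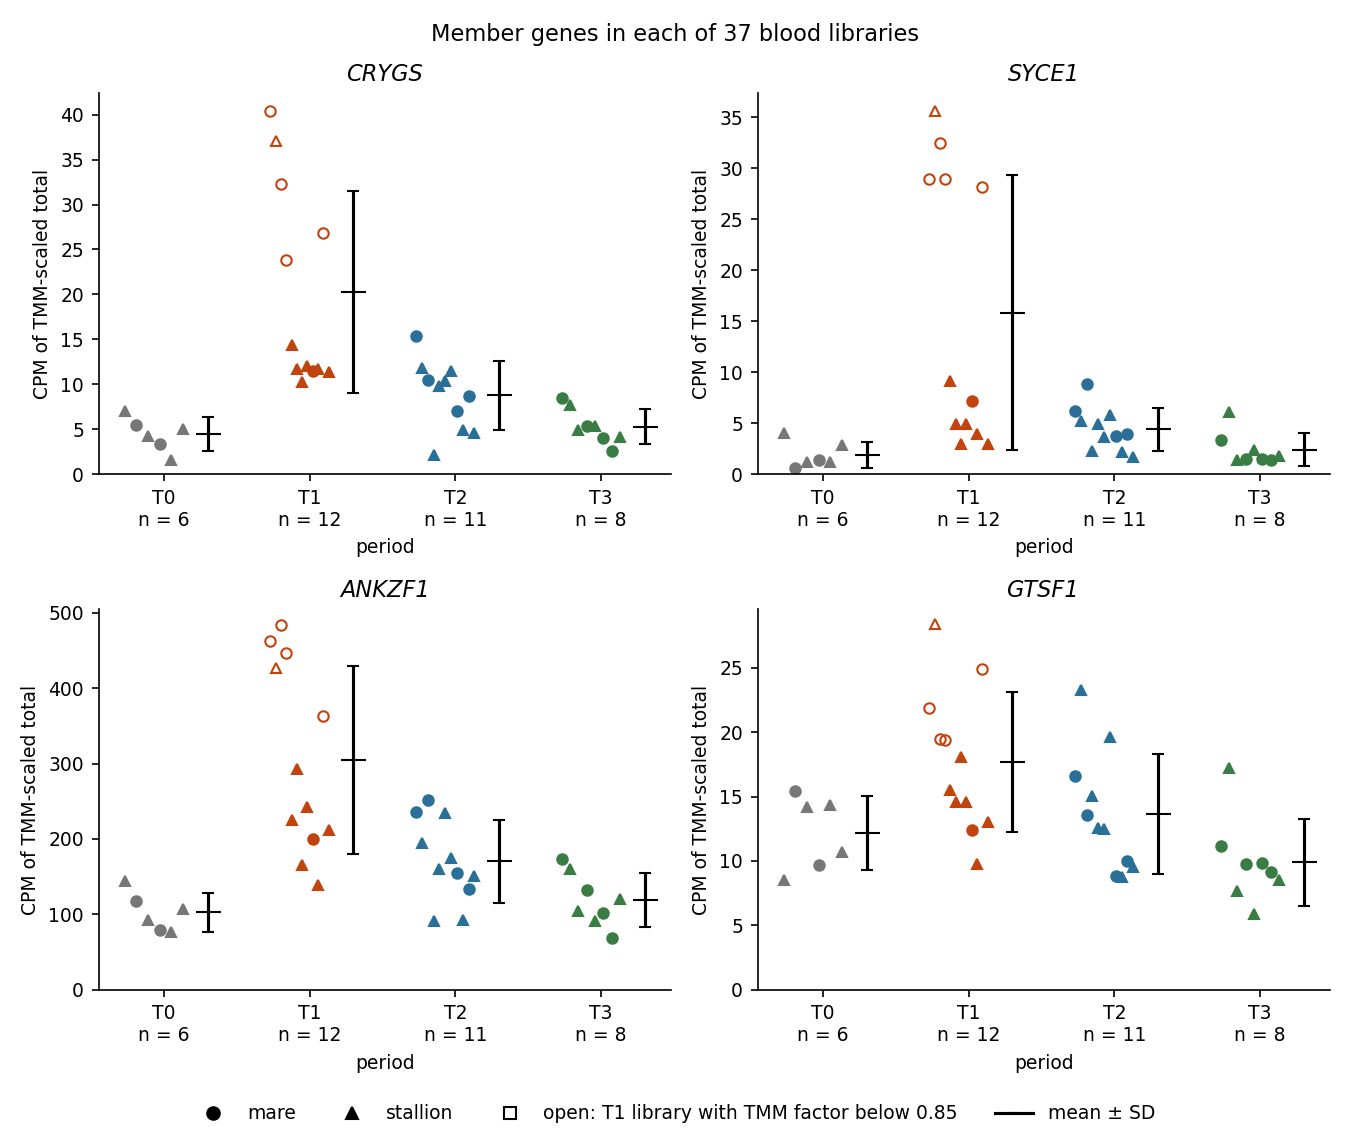
Level of each member (vertical axes, CPM of the TMM-scaled total) in the 37 libraries by period (horizontal axes), with circles for mares, triangles for stallions, open symbols for the 5 T1 libraries of low TMM factor and the mean ± SD beside each group. The open symbols are the 5 highest T1 values of each member, on a scale where a low factor raises the CPM of every gene. CRYGS in T1 does not overlap T0 or T3.

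The order of the mean levels was T1, T2, T3, T0 for CRYGS, SYCE1 and ANKZF1, and T1, T2, T0, T3 for GTSF1. The order of T1, T2 and T3 restates the choice of falling genes, which also bears on how near T3 lies to T0. Untrained and season-end horses, both sampled in October, were neighbours in this order. The means of T0 and T3 differed by less than 1 SD of either group for every member. The libraries of T2 overlapped those of both T1 and T3 for every member.

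The comparison of T0 with T1 asks how horses after the canter phase differ from untrained horses. All 4 members were higher in T1. CRYGS was higher by a log2 fold change of 2.18 (SE 0.39, adjusted p = 0.00027), which is 4.52-fold, and all 12 T1 libraries exceeded the highest T0 library. SYCE1 was higher by 3.04 (SE 0.67, adjusted p = 0.0012) on the log2 scale, with 9 of 12 libraries above the highest T0 library. ANKZF1 was higher by 1.57 (SE 0.28, adjusted p = 0.00028), and GTSF1 by 0.54 (SE 0.22, adjusted p = 0.039), with 7 of 12 libraries above the highest T0 library. The test was edgeR's quasi-likelihood F-test with Benjamini-Hochberg adjustment over all genes, and genes with an adjusted p below 0.05 that also changed 1.3-fold or more were called. In this comparison 29.8% of the 11544 genes tested were called higher in T1, and the libraries of 8.83% did not overlap in that direction, so a call alone does not set a gene apart. The T1 libraries were among those on which the genes were chosen, as the high end of the fall. The p-values against T0, here and for T2 and T3 below, partly restate that choice and are given as a description. The 3 comparisons with T0 also share its libraries.

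Without the 5 libraries of low factor, the log2 fold changes from T0 to T1 were 1.44 for CRYGS, 1.48 for SYCE1, 1.06 for ANKZF1 and 0.24 for GTSF1. The first 3 were still called, where 2923 of 11526 genes were called higher, and the call of GTSF1 was lost. All 7 remaining T1 libraries of CRYGS lay above T0, which follows from the separation of all 12. The share of all genes for which this holds without the 5 libraries was not counted. With all libraries and the log2 TMM factor as a term of the fit, CRYGS at 1.11 (adjusted p = 0.0052 from edgeR) and ANKZF1 at 0.88 (adjusted p = 0.0069) were still called. SYCE1, at 0.92 (adjusted p = 0.13), and GTSF1, at 0.048 (adjusted p = 0.88), were then not called. In that fit 1262 of 11544 genes were called higher. GTSF1 also lost its call when any one of T1 replicates 1, 2, 3, 4 or 11 or of T0 replicates 1, 3, 4, 5 or 6 was left out, while its log2 fold change ranged from 0.40 to 0.60 over the 18 such fits.

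From T0 to T2, the comparison of untrained horses with those after the gallop phase, 3 of 4 members were called higher, against 17% of all genes tested. CRYGS rose by 1.0 on the log2 scale (SE 0.34, adjusted p = 0.028), SYCE1 by 1.25 (SE 0.38, adjusted p = 0.017) and ANKZF1 by 0.75 (SE 0.22, adjusted p = 0.012). GTSF1 had a log2 fold change of 0.19 (SE 0.21, adjusted p = 0.48). CRYGS lost its call without T0 replicate 3, 4 or 5, with log2 fold changes of 0.83 to 1.19 over the 17 fits that each left out a library. With the log2 TMM factor as a term of the fit, the values were 0.40, 1.01, 0.46 and -0.20 in the same order. None of the 4 was then called, where 43 of 11662 genes were called in all. By edgeR, 1 member and 2140 genes had an unadjusted p below 0.05 in that fit.

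From T0 to T3, the comparison of the 2 October groups, no member was called, at a background of 19.6% of genes called in either direction. By edgeR no member had an unadjusted p below 0.05, where 4385 of 11696 genes did. DESeq2 called 0 members and 2507 of 13179 genes. The log2 fold change was 0.24 for CRYGS (95% interval -0.37 to 0.84), 0.31 for SYCE1 (-0.55 to 1.18) and 0.20 for ANKZF1 (-0.20 to 0.61), and differences up to these bounds are not excluded. GTSF1, which the study lists for this comparison as well, had -0.31 (SE 0.21), and 7 of 8 T3 libraries were below the T0 median. Without T3 replicate 2 the value of SYCE1 was -0.03.

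**Figure D2:**
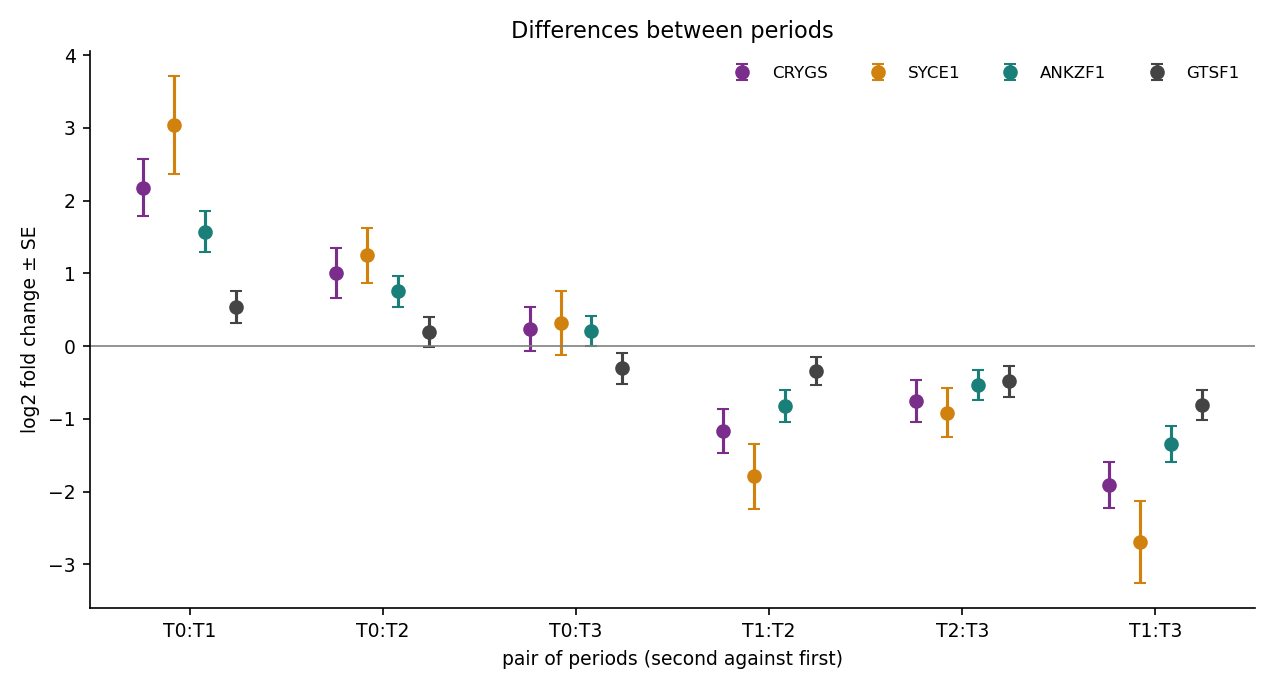
Log2 fold change of each member (vertical axis, points, with bars of 1 SE) in the 6 pairs of periods (horizontal axis), where a positive value means higher in the period named last. Values were highest in T0:T1, from 0.54 to 3.04, and lowest in T1:T3, from -0.81 to -2.69.

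Within the season the members were chosen because they fall, so their values are given as a description. The numbers of members that met the call rule below, and the CRYGS libraries that do not overlap, restate that choice. Nothing is read from them or from the share of all genes beside them. Between T1 and T2 the members had log2 fold changes of -1.17 (SE 0.30) for CRYGS, -1.79 (SE 0.45) for SYCE1, -0.82 (SE 0.22) for ANKZF1 and -0.34 (SE 0.19) for GTSF1, and 3 members met the call rule where 20.8% of genes were called lower. Without the 5 libraries of low factor the values were -0.42, -0.22, -0.30 and -0.03 in the same order, and no gene of the whole table was called by edgeR, with 1444 genes at an unadjusted p below 0.05. With the log2 TMM factor as a term they were -0.30, -0.093, -0.27 and 0.064, and again no gene was called, with 565 at an unadjusted p below 0.05.

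From T2 to T3, where no library had a low factor, the log2 fold change was -0.75 (SE 0.29) for CRYGS, -0.91 (SE 0.33) for SYCE1, -0.53 (SE 0.20) for ANKZF1 and -0.49 (SE 0.21) for GTSF1. All 8 T3 libraries of CRYGS were below the T2 median, as were 7 of SYCE1, 6 of ANKZF1 and 7 of GTSF1. The call rule was met by 3 members, and 21.5% of genes were called lower. The count changed with single libraries: 1 member was left without T2 replicate 1, 2 or 3, and 0 without T3 replicate 3, 6 or 7. Genes called in either direction numbered 4564 to 5329 when a single library was left out. Over the 19 such fits the values stayed between -0.64 and -0.88 for CRYGS, -0.76 and -1.26 for SYCE1, -0.44 and -0.63 for ANKZF1, and -0.38 and -0.65 for GTSF1. With the log2 TMM factor as a term they were -0.37, -0.69, -0.30 and -0.21, and no member met the rule, where 1335 of 11599 genes were called lower. By edgeR, no member had an unadjusted p below 0.05 in that fit, and 5707 genes did.

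From T1 to T3, over the whole season, the log2 fold change was -1.91 (SE 0.32) for CRYGS, -2.69 (SE 0.56) for SYCE1, -1.34 (SE 0.25) for ANKZF1 and -0.81 (SE 0.21) for GTSF1. All 4 met the call rule, where 32% of genes were called lower, and the CRYGS libraries did not overlap, as for 10% of genes. Without the 5 libraries the values were -1.18, -1.14, -0.84 and -0.52, and all 4 still met the rule, where 3123 of 11591 genes were called lower. With the log2 TMM factor as a term and all libraries, CRYGS at -0.93 and ANKZF1 at -0.71 met the rule, whereas SYCE1 at -0.75 and GTSF1 at -0.36 did not. In that fit 2425 of 11471 genes were called lower. Under both settings the value of SYCE1 no longer exceeded that of CRYGS in size. Of the 5 other genes that the study lists as falling, which were chosen on these samples too, 4 were called from T1 to T3, among them GZMH, granzyme H of cytotoxic lymphocytes, at -1.49 (SE 0.34). Without the 5 libraries 3 were called, with GZMH at -0.84 (SE 0.22).

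The levels of the members differed between the 2 sets of T1 libraries. SYCE1 lay between 28.1 and 35.6 CPM in the 5 libraries of low factor and between 2.91 and 9.14 CPM in the 7 others. CRYGS was at 23.9 to 40.4 against 10.3 to 14.3 CPM, ANKZF1 at 363 to 484 against 139 to 293 CPM, and GTSF1 at 19.4 to 28.4 against 9.73 to 18.1 CPM. The sets did not overlap for any member. The share of all genes for which this holds was not counted, so it does not set the members apart. A low TMM factor raises the CPM of every gene of a library, so the same values were also taken on the plain total.

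On the plain total, without the TMM factor, SYCE1 remained higher in the 5 libraries, with a mean of 16.7 ± 3.65 (SD, n = 5) against 5.09 ± 2.06 (SD, n = 7) counts per 1000000, and so did CRYGS, with 17.1 ± 3.68 against 11.9 ± 1.14. ANKZF1 was at 238 ± 60.8 against 213 ± 59.4, a difference smaller than the spread between libraries. GTSF1 was at 12.2 ± 2.13 against 14.1 ± 2.99, which is the opposite order. Per 100 counts of SDHA, a subunit of succinate dehydrogenase that the study used as a reference in PCR, all 4 were higher in the 5 libraries, SYCE1 at 18.3 ± 2.17 against 2.47 ± 0.97 and GTSF1 at 13.7 ± 3.44 against 6.99 ± 2.04. SDHA itself was lower there, at 170 ± 21.6 CPM of the TMM-scaled total (SD, n = 5) against 205 ± 23.0 (SD, n = 7). A lower SDHA count raises the ratio of every gene.

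**Figure D3:**
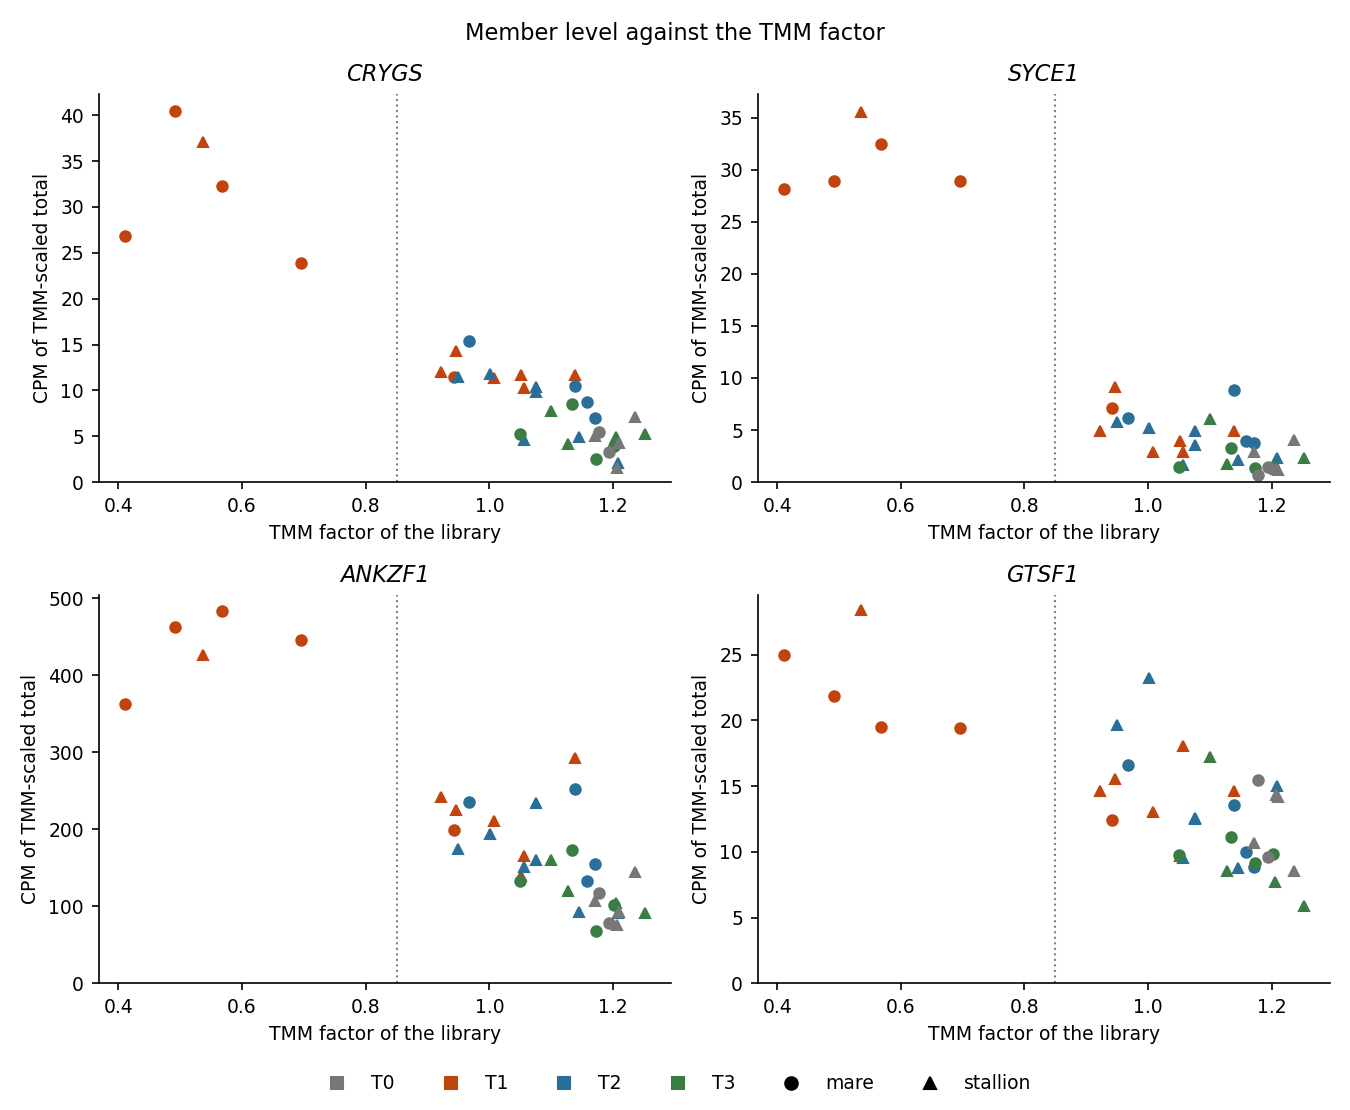
Level of each member (vertical axes, CPM of the TMM-scaled total) against the TMM factor of the library (horizontal axes), coloured by period, with circles for mares and triangles for stallions and a dotted line at a factor of 0.85. The 5 libraries left of the line are all of T1, and their SYCE1 levels of 28.1 to 35.6 CPM stand apart from all others.

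Without the TMM factor the median log2 fold change of all genes tested moved from -0.02 to -0.56 in T0:T1, from 0.06 to 0.43 in T1:T2 and from 0.04 to 0.50 in T1:T3. Genes called higher and lower in T0:T1 then numbered 1421 and 4491, in place of 3445 and 3257, and in T1:T3 they numbered 4869 and 1803, in place of 3777 and 3675. Against that median, CRYGS at 1.40, SYCE1 at 2.12 and ANKZF1 at 0.86 were higher in T1 than in T0. GTSF1, at -0.13, changed sign on this scale in T0:T1 and, at 0.13, in T1:T2, but stood above the median of all genes in T0:T1 and below it in T1:T2. From T1 to T3 the values were -1.22 for CRYGS, -1.87 for SYCE1 and -0.71 for ANKZF1. GTSF1 moved from -0.81 to -0.24 there and no longer met the call rule, which left 3 members.

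**Figure D4:**
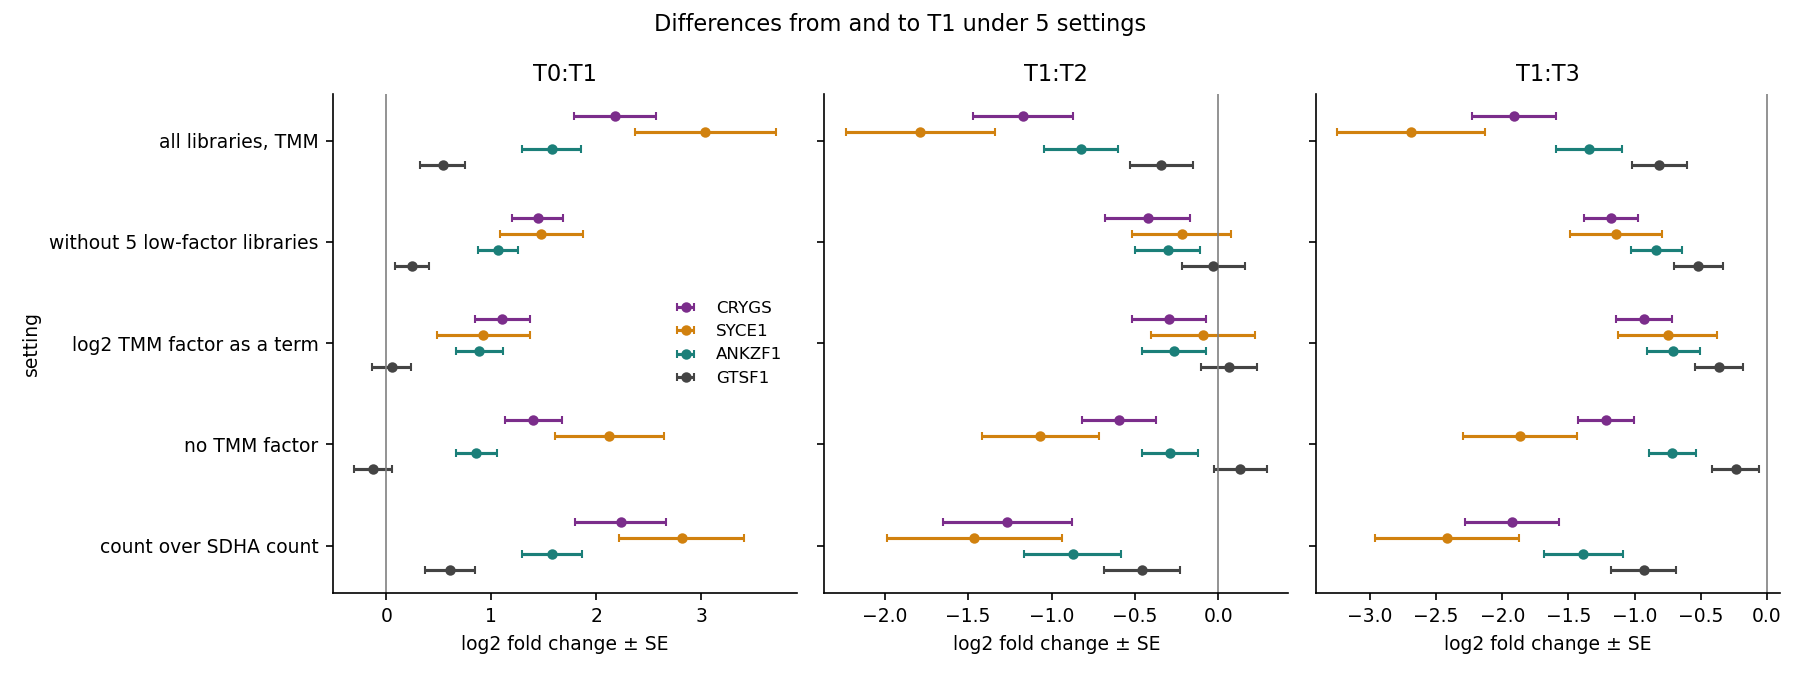
Log2 fold change of each member (horizontal axes, points, with bars of 1 SE) in T0:T1, T1:T2 and T1:T3 under 5 settings (vertical axis). CRYGS, SYCE1 and ANKZF1 kept their sign under each of the 5, and GTSF1 changed sign in T0:T1 without the TMM factor (-0.13) and in T1:T2 without it (0.13) or with it as a term (0.064).

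Within periods the TMM factor and the members were compared over the 6 libraries of T0, the 7 others of T1, the 11 of T2 and the 8 of T3; the 5 low-factor libraries were too few. None of the 16 relations passed Benjamini-Hochberg adjustment. The largest was CRYGS in T2, with Pearson's r = -0.663 (permutation p = 0.013, adjusted p = 0.21, n = 11) and Spearman's rho = -0.727 (permutation p = 0.014, adjusted p = 0.23), and r = -0.528 without the 2 libraries farthest in factor. All 4 members had a negative r in T2, in T3 and in the 7 others of T1, and 1 of 4 had a negative r in T0. The level is itself divided by the factor, so a negative r can arise from the scaling alone, which was not tested.

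CRYGS and ANKZF1 varied together within periods. Over the 8 libraries of T3 Pearson's r of their log2 levels was 0.895 (exact permutation p = 0.0057, adjusted p = 0.034 over 24 relations), with rho = 0.738 (exact permutation p = 0.046, adjusted p = 0.12), and r = 0.653 without the 2 farthest libraries. Over the 11 libraries of T2 it was 0.821 (permutation p = 0.0028, adjusted p = 0.034), with rho = 0.855 (permutation p = 0.0014, adjusted p = 0.020), and 0.834 without the 2 farthest. In T0 r was 0.877 and rho was 1, each at an exact permutation p of 0.0028, the smallest that 6 libraries allow for rho, with adjusted p = 0.034 for r and 0.022 for rho, and r was 0.991 without the 2 farthest. Among the 7 other libraries of T1 r was only 0.347 (exact permutation p = 0.47, adjusted p = 0.55), with rho = 0.393 (exact permutation p = 0.40, adjusted p = 0.59), and r was 0.178 without the 2 farthest.

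CRYGS and SYCE1 in T2 also passed, with r = 0.798 (permutation p = 0.0042, adjusted p = 0.034), rho = 0.855 (permutation p = 0.0017, adjusted p = 0.020) and r = 0.791 without the 2 farthest. No relation with GTSF1 passed in any period. The 2 genes of a relation share the library and its scaling.

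**Figure D5:**
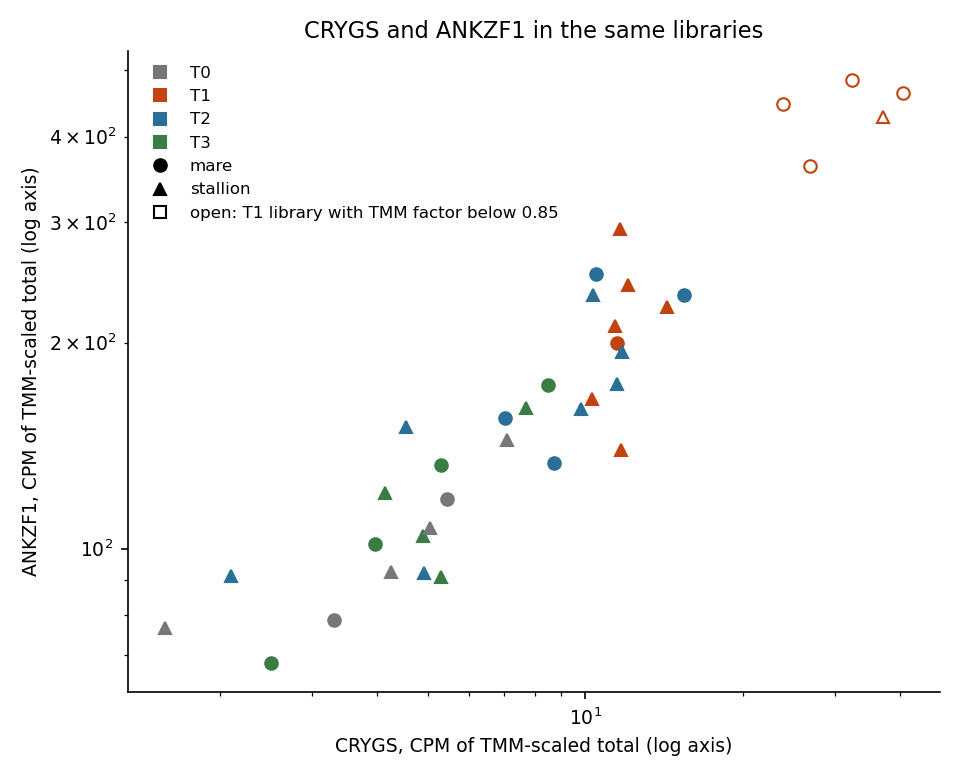
CRYGS (horizontal log axis) against ANKZF1 (vertical log axis), both as CPM of the TMM-scaled total, in the 37 libraries, coloured by period, with open symbols for the 5 T1 libraries of low factor. Libraries with more CRYGS had more ANKZF1 within T0, T2 and T3, and the 5 open symbols lie highest for CRYGS.

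Over all 37 libraries, where the differences between periods also enter, Spearman's rho as a description was 0.922 between CRYGS and ANKZF1, 0.889 between CRYGS and SYCE1 and 0.868 between SYCE1 and ANKZF1. GTSF1 had 0.670 with CRYGS, 0.619 with SYCE1 and 0.663 with ANKZF1. Among the 10657 genes compared, ANKZF1 ranked 82, SYCE1 253 and GTSF1 2209 in likeness to CRYGS. From the other side, CRYGS ranked 29 in likeness to SYCE1, 56 in likeness to ANKZF1 and 1173 in likeness to GTSF1. The gene most like CRYGS was ENSECAG00000023213, with rho = 0.956, and ENSECAG00000001426 was among the 3 most like both CRYGS (0.951) and SYCE1 (0.911). They are given by identifier because no table used here pairs them with a symbol. The gene nearest to GTSF1 reached rho = 0.852. Over the 32 libraries without the 5 of low factor, rho was 0.882 between CRYGS and ANKZF1 (rank 92 for CRYGS), 0.830 between CRYGS and SYCE1 (rank 309), 0.798 between SYCE1 and ANKZF1, and 0.505 between CRYGS and GTSF1 (rank 2699). ENSECAG00000023213 was still the gene most like CRYGS, with 0.935.

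Sex was not used to choose the genes. Stallions against mares, with period as a term, gave log2 differences of -0.36 for CRYGS (95% interval -0.79 to 0.08, adjusted p = 0.36), -0.47 for SYCE1 (-1.13 to 0.19, adjusted p = 0.42), -0.30 for ANKZF1 (-0.61 to 0.01, adjusted p = 0.31) and -0.03 for GTSF1 (-0.32 to 0.27, adjusted p = 0.93). None of the 4 was called, by edgeR or by DESeq2, at a background of 0.0479% of 12526 genes called by edgeR. None had an unadjusted p below 0.05, where 2043 genes did by edgeR. Without the 5 low-factor libraries, of which 4 came from mares, the differences were -0.10, 0.02, -0.08 and 0.10.

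In T1, SYCE1 was at 25.1 ± 10.2 CPM (SD, n = 5) in mares and 9.18 ± 11.8 (SD, n = 7) in stallions, and without the 5 libraries the 1 mare was at 7.12 and the 6 stallions at 4.79 ± 2.31 CPM (SD). In T3 mares were at 1.89 ± 0.94 (SD, n = 4) and stallions at 2.87 ± 2.16 (SD, n = 4). The sex by period interaction between T1 and T3 was 2.05 on the log2 scale for SYCE1 (SE 0.92, unadjusted p = 0.037, adjusted p = 0.28, from edgeR), and 0.91 for CRYGS, 0.67 for ANKZF1 and 0.22 for GTSF1. It was called for 0 members and for 0% of the 11946 genes, with 2097 genes at an unadjusted p below 0.05 by edgeR and 32 genes called by DESeq2. Without the 5 libraries the value for SYCE1 was 1.12 (adjusted p = 0.71). In T1, sex and the low factor cannot be told apart well, since 1 mare and 6 stallions remain.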

How the data were processed

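The authors trimmed reads with Flexbar, aligned them with STAR to EquCab2 with Ensembl annotation and obtained expected counts of genes from RSEM; technical repeats of a library are a single column. The deposited expected counts are whole numbers after rounding, without normalization, and were used for 37 libraries and 26991 genes. The smaller deposited tables were not used. No pair of libraries was a duplicate (lowest chi-square per degree of freedom 14.5).

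Periods were compared pairwise in R 4.3.3 with edgeR 4.0.16 (filterByExpr, TMM, quasi-likelihood F-test, Benjamini-Hochberg adjustment); the script was tested on simulated data. SE was obtained by dividing the log2 fold change by the root of the F statistic. Intervals are 95% normal intervals from the SE. CPM uses TMM factors over all 37 libraries. P-values of the fits weigh a difference against the spread between libraries. Among T1, T2 and T3 and in the sex tests, libraries of the same horse were treated as independent. Correlations used exact permutations (n below 10) or 100000 permutations in scipy 1.17.1. The most alike genes were the 3 with the highest Spearman's rho among genes whose counts averaged 20 or more.

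The members and lists were chosen with earlier results of these data known. Alternatives were RLE size factors, DESeq2 1.42.0, no filter, 6 or more counts in each library, all libraries in a single fit, the title number, sex or log2 TMM factor as a term, genes over 1% of a library left out, libraries of TMM factor below 0.85 left out, and each library left out. Fits without the TMM factor, ratios to SDHA and likeness without the libraries of low factor were chosen after seeing the data. The pathway and blood cell lists were not analysed, because 0 identifiers of the reference table were paired with a symbol in Ensembl form.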

Additional observations from a re-analysis of the deposited data

Results flagged for a closer look

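Among the 8 groups of T0 and T3 that were small enough to test, 2 had a library that stood apart from the rest by Dixon's test, where chance flags about 1 in 20. In T3, replicate 2, a stallion, had the highest SYCE1 level at 6.06 CPM, and its gap to the next library was 58.5% of the range of the group. The same library had the highest GTSF1 level of T3 at 17.2 CPM, with a gap of 53.3% of the range. Without it, the log2 fold change of SYCE1 from T0 to T3 was -0.03, in place of 0.31, and that of GTSF1 from T2 to T3 was -0.65, in place of -0.49.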

How the results depend on the processing

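DESeq2, RLE size factors, sex as a term and the removal of genes over 1% of a library kept, where they were run, the direction and the call of every member, and kept each count of called genes in the 6 pairs within 1.5 times. By sex DESeq2 called 18 genes in place of 6, and for the interaction 32 in place of 0. Numbers of members called and of genes called are given together where either moved. With the log2 TMM factor as a term they were 2 and 2697 in T0:T1, 0 and 43 in T0:T2, 0 and 0 in T1:T2 (565 genes at an unadjusted p below 0.05), 0 and 3268 in T2:T3, and 2 and 4746 in T1:T3, and GTSF1 turned to -0.20 in T0:T2 and 0.064 in T1:T2. Without the 5 low-factor libraries both were 0 in T1:T2. Without the TMM factor they were 1 and 1751 in T1:T2 and 1 and 4642 in T2:T3. GTSF1 then turned to -0.13 in T0:T1 and 0.13 in T1:T2. With all 37 libraries in a single fit the numbers were 1 and 2113 in T0:T2, 0 and 3696 in T2:T3, and 0 and 718 in T0:T3. Among genes that reach 6 counts in all libraries they were 3 and 2354 in T0:T2 and 1 and 3212 in T2:T3. Without a filter they were 1 and 5111 in T2:T3. The cause was not tested.

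The title number as a replicate block gave 1457 genes in T0:T3 against 2295. In T2:T3 it gave 4 members, with GTSF1 added, and 5291 genes, and it changed no other call of a member. The numbers do not pair the libraries: correlations of same-numbered libraries ran from -0.23 to 0.43 in T1:T2, and 5 of its 11 numbers joined a mare and a stallion.

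For stallions against mares GTSF1 turned to 0.019 among genes that reach 6 counts in all libraries, 0.15 with the log2 TMM factor as a term and 0.10 without the low-factor libraries, where SYCE1 turned to 0.016. The interaction there turned to -0.11 for ANKZF1 and -0.24 for GTSF1. With 1 library left out, members called ranged from 3 to 4 in T0:T1, 2 to 3 in T0:T2 and 0 to 4 in T2:T3, and stayed at 0 in T0:T3, 3 in T1:T2 and 4 in T1:T3. Genes called ranged from 6007 to 6973 in T0:T1, 3039 to 4306 in T0:T2 and 4564 to 5329 in T2:T3. They ranged from 1646 to 2873 in T0:T3, 2534 to 4631 in T1:T2 and 7105 to 7652 in T1:T3. SYCE1 in T0:T3 ranged from -0.026 to 0.69.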
